A study of Mus musculus with 12 samples.

Results

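Bulk RNA-seq. of osteoclast cultures was examined for the receptors and soluble proteins that recognise dying cells by their exposed phosphatidylserine. The genes were Mertk, Axl and Tyro3, which together form the TAM family of receptor tyrosine kinases, their ligands Gas6 and Pros1, the bridging protein Mfge8 and the phosphatidylserine receptor Timd4. They were chosen by name as partners in 1 recognition system, with earlier results of these data known, and make up 7 of the 47643 genes in the count table. The cultures of all 3 groups started from marrow monocytes (BMMs) that came from BALB/c WT mice and were kept with M-CSF and RANKL, the cytokines that drive osteoclast formation. OCsCtr cultures received no stimulus. OCsEo cultures received living eosinophils at a BMM to eosinophil ratio of 1 to 2, and OCsEoS cultures received eosinophil supernatant diluted 1 to 2. Both stimuli were present from the first day for 48 h, after which the cells were washed on day 2 and given fresh medium, and RNA was taken on day 3. The eosinophils were sorted from pooled blood and bone marrow of IL-5tg/4get mice, which overproduce IL-5 and report IL-4 transcription. Each group held 4 libraries, the ages of the mice are not given in the sources used here, and the p-values measure the spread between these libraries. By the study's methods the libraries of a group are biological replicates, but the labels do not say which animals each came from.

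Cells that die by apoptosis move phosphatidylserine to their surface, where it acts as a signal for removal. Gas6 and protein S, the product of Pros1, bind this lipid through a domain whose glutamates are carboxylated with the help of vitamin K, and with their other end they activate TAM receptors. Mfge8 joins the same lipid to integrins built on the alpha v chain, whereas Timd4 binds the lipid itself and is a marker of resident macrophages. In macrophages Mertk is the TAM receptor best known for engulfing dying cells and Axl is better known for restraining inflammation. Macrophages and osteoclasts arise from the same precursors, and osteoclasts carry large amounts of the alpha v beta 3 integrin.

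Total counts ranged from 27837530 to 40327869 per library, so that 3 counts corresponded to 0.0744 to 0.108 CPM, that is, counts scaled to a library total of 1e+06. All 10 osteoclast markers, chosen with earlier results of these data known, were detected in every group. Their summed level was 28358 to 34496 CPM in OCsCtr, 18093 to 23205 CPM in OCsEo and 14942 to 22171 CPM in OCsEoS. Of the 10, 8 were called lower in each stimulated group, beside 2.61% of all tested genes in OCsEo and 4.11% in OCsEoS. The study itself reported several of these markers as lower on these samples, so these calls are not independent evidence of a direction. The summed level of 8 macrophage markers ranged from 6465 to 7102 CPM in OCsCtr, from 6672 to 8202 CPM in OCsEo and from 6211 to 7343 CPM in OCsEoS. Eosinophil markers, 9 in number, summed to between 48.7 and 73.4 CPM in all libraries, of which most was Ccr3 at 45.7 to 65.6 CPM, and the granule gene Epx averaged 0.0664 CPM in OCsCtr and 0.203 CPM in OCsEo and had 0 counts in OCsEoS. Of these 9 markers 4 could be tested, and the rest, Epx among them, were too scarce for a call. Among the 4, only Siglecf was called higher in OCsEo, at 2.94 ± 0.32 CPM against 0.428 ± 0.20 CPM in OCsCtr and 0.827 ± 0.45 CPM in OCsEoS (SD, n = 4). Ccr3 averaged 59.6 CPM in OCsCtr, 48.7 CPM in OCsEo and 50.7 CPM in OCsEoS, a difference under the cutoff. The granule gene Prg2 was at 5.53 CPM in OCsCtr and 5.49 CPM in OCsEo and was called lower in OCsEoS, at 0.815 CPM, against both. Camp and Elane, of 8 neutrophil markers, were called higher in OCsEo against OCsCtr, as were 3.27% of all tested genes. Between the stimulated groups 7 of the 8 did not overlap, lower in OCsEoS, with Ngp, Mpo and Ltf called. Over all tested genes, 5.47% did not overlap there in either direction and 0.307% were called lower in OCsEoS. Of 5 platelet and megakaryocyte markers, Pf4 was called higher in OCsEoS, at 107 ± 14.4 CPM against 57.6 ± 11.6 CPM in OCsCtr (SD, n = 4). The others averaged lower in OCsEoS than in OCsCtr, Ppbp at 30.4 against 40.8 CPM and Itga2b at 10.5 against 14.3 CPM. Gp9 was at 2.41 against 3.19 CPM and Gp1bb at 4.56 against 5.33 CPM. Of the 5, 0 were called lower and 2 were lower by edgeR adjusted p under 0.05 alone. Their median log2 fold change was -0.41. Throughout, a gene was called when its log2 fold change passed 0.5 in either direction and edgeR's quasi-likelihood test, run over 13681 genes, gave a p below 0.05 after Benjamini-Hochberg adjustment. In bulk cultures, fewer cells of a type and less RNA per cell cannot be told apart, and this holds for every gene below.

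Divided by gene length, the 7 genes spanned more than 2 orders of magnitude. In OCsCtr, Mfge8 stood highest at 13.5 ± 1.1 CPM per kilobase, followed by Axl at 6.84 ± 0.88, Gas6 at 3.96 ± 0.68, Pros1 at 1.65 ± 0.14 and Mertk at 0.386 ± 0.33 CPM per kilobase (SD, n = 4). Tyro3 at 0.0495 ± 0.030 and Timd4 at 0.0484 ± 0.040 CPM per kilobase ended the order. Of the neighbours in this order only Tyro3 and Timd4 overlapped between libraries in OCsCtr, and the same held in OCsEo. In OCsEoS the order of the first 5 genes was the same, but Mfge8, at 6.15 to 10.04 CPM per kilobase, overlapped with Axl, at 6.12 to 7.36, and Mertk overlapped with Timd4. Set against all tested genes by level per kilobase in OCsCtr, Mfge8 lay above 73.2% of them, Axl above 61.2%, Gas6 above 50.8%, Pros1 above 35.3% and Mertk above 15.6%.

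**Figure D1:**
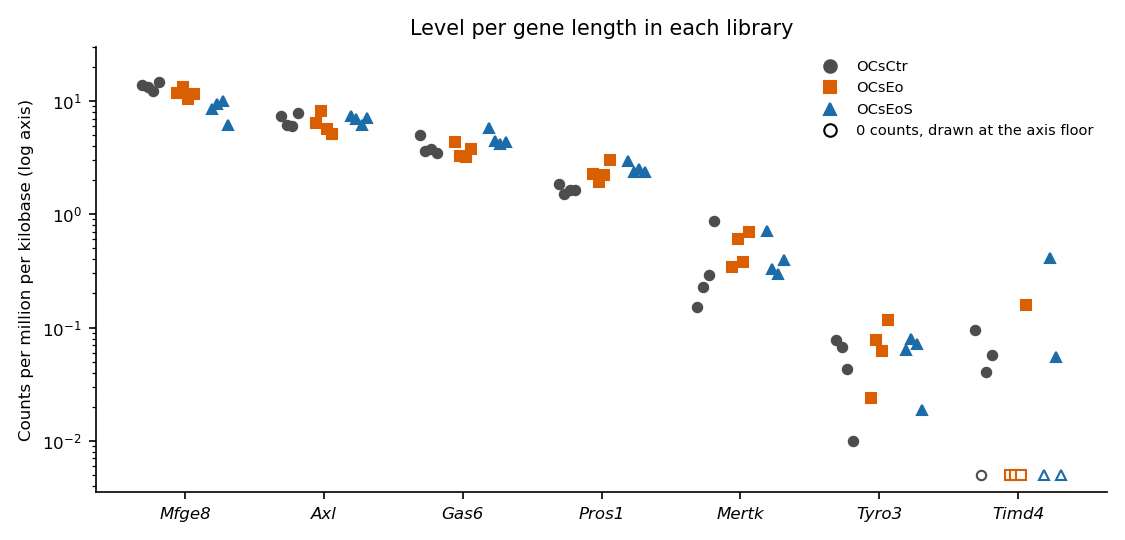
Level of each gene divided by its length, in CPM per kilobase on a log axis, with 1 point a library and colours for the 3 groups. Mfge8, Axl, Gas6 and Pros1 form separate steps in OCsCtr, and open points at the bottom mark libraries with 0 counts of Timd4.

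Among the receptors, Axl (ENSMUSG00000002602, GRCm38 chr7:25757273-25788705, minus strand) made up nearly the whole of the TAM receptor transcripts. Its share of the 3 receptors, per gene length, was 94.3 ± 3.1% in OCsCtr, 91.5 ± 3.5% in OCsEo and 93.4 ± 2.0% in OCsEoS. In OCsCtr libraries 1 to 4 Axl stood at 36.8, 31.2, 30.3 and 39.5 CPM. The OCsEo libraries gave 32.1, 41.3, 28.5 and 26.0 CPM, and the OCsEoS libraries gave 37.0, 35.1, 30.8 and 35.4 CPM. The 3 groups overlapped, with the widest spread in OCsEo. The log2 fold change was -0.11 (95% CI -0.37 to 0.16, edgeR adjusted p = 0.636) in OCsEo and 0.0058 (95% CI -0.26 to 0.27, edgeR adjusted p = 0.982) in OCsEoS. These intervals lie inside the cutoff of 0.5 on either side, so a change of Axl as large as the cutoff is outside the 95% interval of both comparisons. The values of Axl rested on 750 to 1555 counts a library.

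Mertk (ENSMUSG00000014361, GRCm38 chr2:128698956-128802894, plus strand) was covered by only 19 to 122 counts a library. The OCsCtr libraries gave 0.659, 0.979, 1.27 and 3.79 CPM, the OCsEo libraries 1.49, 2.61, 1.64 and 3.01 CPM, and the OCsEoS libraries 3.10, 1.42, 1.28 and 1.72 CPM. Replicate 4 of OCsCtr was the highest of all 12 libraries, whereas the other OCsCtr libraries were lower than every stimulated library. The margin was narrow, since replicate 3 of OCsCtr and replicate 3 of OCsEoS both had 43 counts. The log2 fold change was 0.38 ± 0.47 (SE, edgeR adjusted p = 0.651) in OCsEo and 0.16 ± 0.47 (SE, edgeR adjusted p = 0.858) in OCsEoS. Without replicate 4 of OCsCtr the value in OCsEo was 1.17 with an edgeR adjusted p of 0.0856, which is still not a call. The interval in OCsEo, from -0.59 to 1.35, holds both a fall and a more than 2-fold rise, so these libraries do not settle the direction for Mertk.

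Tyro3 (ENSMUSG00000027298, GRCm38 chr2:119797733-119818104, plus strand) was represented by 2 to 21 counts a library and contributed 0.715 ± 0.44% of the TAM receptor transcripts per length in OCsCtr. It averaged 0.307 ± 0.19 CPM in OCsCtr, 0.435 ± 0.24 CPM in OCsEo and 0.361 ± 0.17 CPM in OCsEoS (SD, n = 4). The groups overlapped widely, and the 95% interval of the log2 fold change ran from -1.12 to 2.11 in OCsEo and from -1.40 to 1.87 in OCsEoS. At this depth no change of Tyro3 was detectable.

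**Figure D2:**
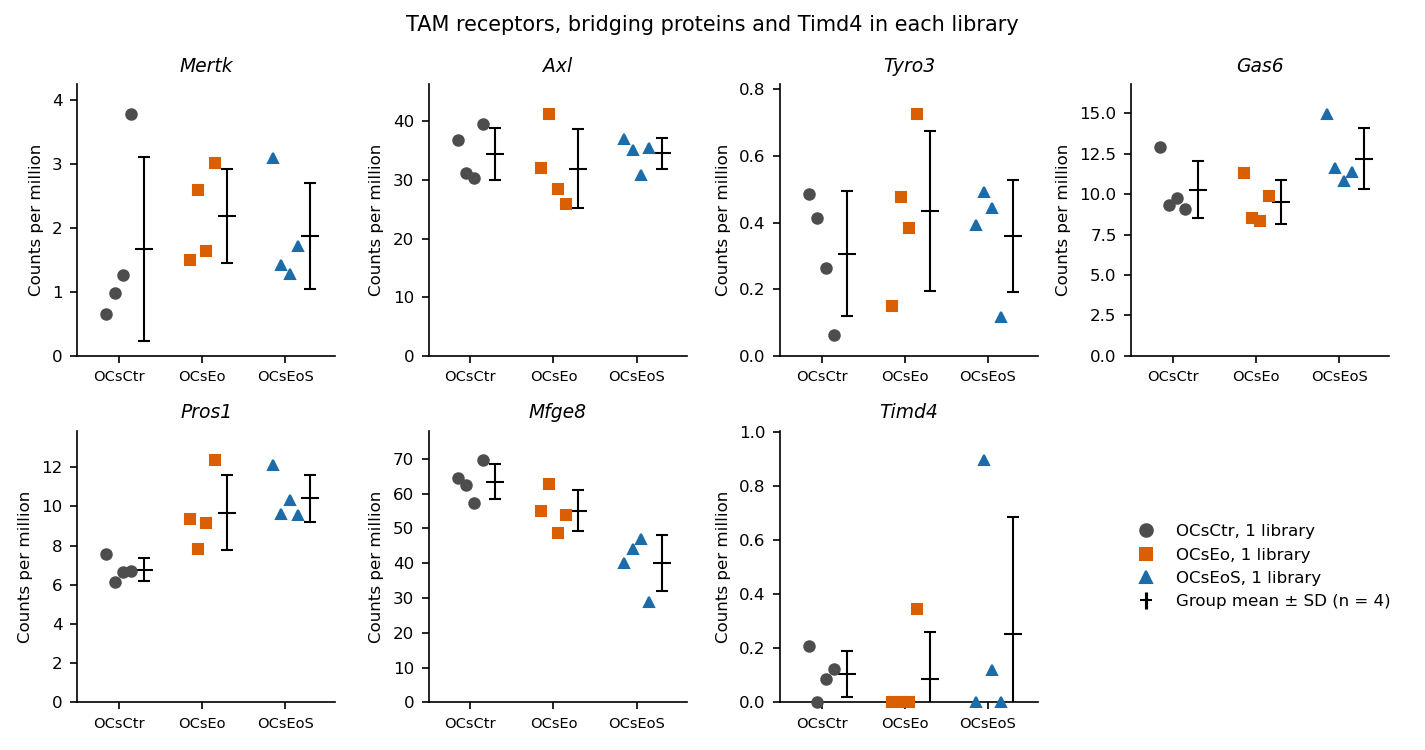
Level of each of the 7 genes in CPM (linear axes from 0), with 1 point a library in the order of the replicate numbers and the group mean ± SD beside them. The 4 OCsEo and the 4 OCsEoS libraries lie above all OCsCtr libraries for Pros1, the OCsEoS libraries lie below both other groups for Mfge8, and the lower bars of Timd4 are cut at 0.

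The ligand genes behaved differently from each other. Pros1 (ENSMUSG00000022912, GRCm38 chr16:62854307-62929346, plus strand), which encodes the anticoagulant and TAM ligand protein S, stood at 7.56, 6.14, 6.65 and 6.69 CPM in the OCsCtr libraries. The OCsEo libraries reached 9.35, 7.84, 9.15 and 12.4 CPM and the OCsEoS libraries 12.1, 9.64, 10.3 and 9.56 CPM. Every stimulated library was above every OCsCtr library, and the stimulated groups overlapped with each other. Pros1 was called higher in OCsEo, at a log2 fold change of 0.52 ± 0.15 (SE, 95% CI 0.19 to 0.84, edgeR adjusted p = 0.0249). In OCsEoS it was called higher at 0.62 ± 0.15 (SE, 95% CI 0.30 to 0.94, edgeR adjusted p = 0.00598). These values correspond to 1.43-fold and 1.54-fold, both against the same OCsCtr libraries. Of the 6 genes that could be tested, Pros1 was the only 1 called higher in either comparison and 0 were called lower in OCsEo. Of all tested genes, 3.27% were called higher and 2.61% lower in OCsEo, and 21.5% had libraries that did not overlap between OCsEo and OCsCtr in either direction. The call in OCsEo lay close to the cutoff. It was lost without replicate 4 of OCsEo, the highest of its group, where the log2 fold change was 0.38 (edgeR adjusted p = 0.108). It was also lost without replicate 2, 3 or 4 of OCsCtr, at 0.48 (edgeR adjusted p = 0.0725), 0.51 (edgeR adjusted p = 0.0578) and 0.51 (edgeR adjusted p = 0.0582). The call in OCsEoS held in every alternative that was run, with log2 fold changes of 0.55 to 0.67. Of the 8 macrophage markers, 1 was called higher in OCsEo. In OCsEoS, beside 3.63% of all tested genes called higher and 4.11% lower, 4 of these markers were called higher and Csf1r lower. The part of these and of the eosinophil, neutrophil and platelet markers given above in the value of Pros1 was not tested.

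Gas6 (ENSMUSG00000031451, GRCm38 chr8:13465374-13494535, minus strand), the ligand with the highest affinity for Axl, gave 12.9, 9.35, 9.77 and 9.08 CPM in OCsCtr. Its levels were 11.3, 8.53, 8.33 and 9.87 CPM in OCsEo and 14.99, 11.6, 10.8 and 11.4 CPM in OCsEoS. All 3 groups overlapped. The log2 fold change was -0.11 (95% CI -0.43 to 0.21, edgeR adjusted p = 0.696) in OCsEo and 0.25 (95% CI -0.07 to 0.57, edgeR adjusted p = 0.279) in OCsEoS, neither of which was a call. Gas6 shares 34 exon bases with Tmem255b, a gene on the opposite strand, and the strand setting of the counting is not given in the sources used here. The exons of the other 6 genes overlap no other gene in the GENCODE vM21 annotation.

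Since Pros1 rose and Gas6 did not pass the test, the makeup of the ligand transcripts was calculated per gene length in each library. Pros1 contributed 27.1 to 31.8% of the sum of both ligands in OCsCtr, 34.4 to 44.3% in OCsEo and 33.9 to 37.7% in OCsEoS, and Gas6 the rest. Thus Gas6 stayed the more abundant ligand transcript in all 12 libraries, and the share of Pros1 was higher in every stimulated library than in any OCsCtr library. This share contains the value of Pros1 that was tested above and was given no test of its own.

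**Figure D3:**
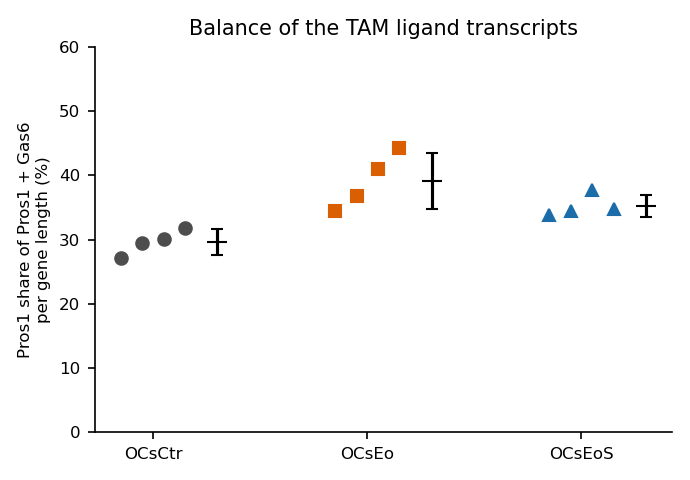
Share of Pros1 in the summed Pros1 and Gas6 level per gene length, in percent, with 1 point a library and the group mean ± SD beside them. The OCsCtr libraries end at 31.8%, and both stimulated groups begin above that value.

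Mfge8 moved the other way. This gene (ENSMUSG00000030605, GRCm38 chr7:79133768-79149060, minus strand) encodes the milk fat globule protein that joins phosphatidylserine to alpha v integrins. It stood at 64.6, 62.4, 57.3 and 69.7 CPM in OCsCtr, at 55.1, 62.9, 48.8 and 53.8 CPM in OCsEo and at 40.1, 44.1, 47.1 and 28.9 CPM in OCsEoS. Every OCsEoS library was below every library of the other groups, whereas OCsEo and OCsCtr overlapped. In OCsEoS the log2 fold change was -0.66 ± 0.12 (SE, 95% CI -0.91 to -0.42, edgeR adjusted p = 0.000391), which is 0.631-fold, and Mfge8 was called lower. In OCsEo it was -0.20 ± 0.12 (SE, 95% CI -0.45 to 0.04, edgeR adjusted p = 0.262) and was not called. The call in OCsEoS held in every alternative that was run, at -0.53 without replicate 4 of OCsEoS, the lowest library, and at -0.75 without replicate 3. In the comparison of OCsEoS with OCsCtr, 1 of the 6 tested genes was called higher and 1 lower, beside 3.63% and 4.11% of all tested genes. Libraries did not overlap for 25.7% of all tested genes there. The osteoclast markers were lower in the same OCsEoS libraries, where Prg2 was also lower and Pf4 higher, and the part of these shifts in the value of Mfge8 was not tested.

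Timd4 (ENSMUSG00000055546, GRCm38 chr11:46810800-46844332, plus strand) was too scarce for the test of all genes. It had 6, 0, 3 and 4 counts in OCsCtr, 0, 0, 0 and 10 in OCsEo and 0, 31, 4 and 0 in OCsEoS, so most of its counts came from replicate 2 of OCsEoS. An exact permutation test of the mean CPM, two-sided over all 35 splits of 8 libraries, gave p = 1 in OCsEo and p = 0.886 in OCsEoS against OCsCtr, where 0.0286 is the smallest p that 4 against 4 libraries allow. Timd4 thus had 0 counts in 6 of the 12 libraries and at most 10 in 5 others.

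**Figure D4:**
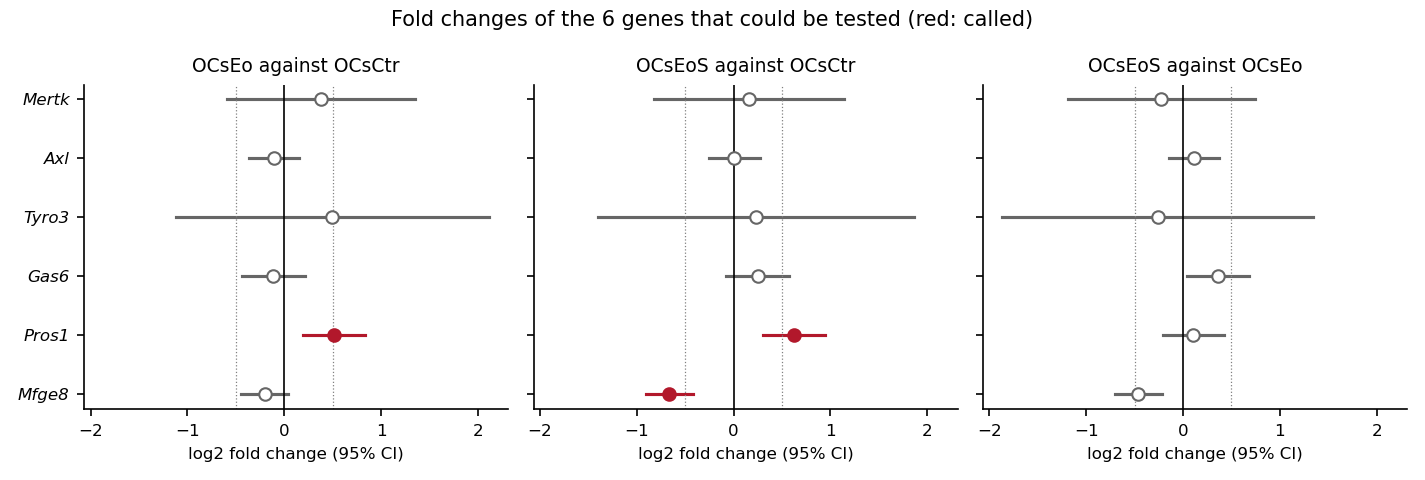
log2 fold change with its 95% confidence interval for the 6 genes that could be tested, in the 3 comparisons, with dotted lines at the cutoff of 0.5 on either side. Filled red points mark the 3 calls, Pros1 in both stimulated groups and Mfge8 in OCsEoS, and the intervals of Mertk and Tyro3 are the widest.

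Between the stimulated groups, the question was whether living eosinophils and their supernatant differed in effect. By edgeR 0 of the 6 tested genes were called and 2 had an unadjusted p under 0.05, as did 1524 of all 13681 genes. Of all tested genes, 0.0731% were called higher and 0.307% lower in OCsEoS against OCsEo. The nearest to a call was Mfge8, with a log2 fold change of -0.46 (95% CI -0.71 to -0.22, edgeR adjusted p = 0.0861). DESeq2 gave Mfge8 an adjusted p of 0.0151 over all 12 libraries and 0.0369 on the 2 groups, so that by DESeq2 only the cutoff of fold change kept it from a call. Its libraries did not overlap between the 2 groups, as for 5.47% of all tested genes. Gas6 was the other gene, higher in OCsEoS by 0.36 (95% CI 0.04 to 0.68, edgeR adjusted p = 0.386). For Pros1 the difference was 0.11 (95% CI -0.21 to 0.42, edgeR adjusted p = 0.844), and for Axl 0.11 (95% CI -0.15 to 0.37, edgeR adjusted p = 0.787). For Timd4 the exact permutation test gave p = 0.714.

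The genes whose pattern came nearest to Pros1 and Mfge8, the genes that were called, were looked up among 10631 genes whose mean log2 CPM reached 1. Nearness was the root mean square difference of log2 CPM, centred for each gene, over all 12 libraries. Differences between the groups are part of this measure. Fold changes like those of Pros1 and Mfge8 therefore follow from the choice of these genes and are not separate evidence. The nearest to Pros1 were C5ar1 at 0.107, Metrnl at 0.119 and Adgre1 at 0.123. C5ar1 is the receptor of complement C5a, and Adgre1 is the macrophage marker known as F4/80. C5ar1 had log2 fold changes of 0.55 in OCsEo (edgeR adjusted p = 0.00551) and 0.52 in OCsEoS (edgeR adjusted p = 0.00608). Metrnl, which encodes a secreted protein, rose by 0.55 and 0.60, and Adgre1 stood 0.46 higher in OCsEo, under the cutoff, and was called in OCsEoS at 0.56. Among the 3 nearest to Mfge8 were Bsdc1 at 0.126 and Fam63b at 0.129, both called lower in OCsEoS at -0.56 and -0.61 and not called in OCsEo.

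The partners of these genes were described with 7 lists of 93 genes in all, of which 86 could be tested. In OCsEo 10 were called higher and 2 lower, and the median log2 fold change of the 86 was 0.04 against -0.01 over all tested genes, of which 3.27% were called higher and 2.61% lower. In OCsEoS 9 were called higher and 4 lower, with a median of -0.01 against -0.01 over all genes, of which 3.63% were called higher and 4.11% lower. An unadjusted p under 0.05 was reached by 4069 of all 13681 genes in OCsEo and by 4686 in OCsEoS. Both comparisons share the OCsCtr libraries. The called genes Cd36, Trem2 and Cd14 belong to a group that the study itself picked out on these samples as phagocytosis genes, so that their calls are not independent evidence of a direction.

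**Figure D5:**
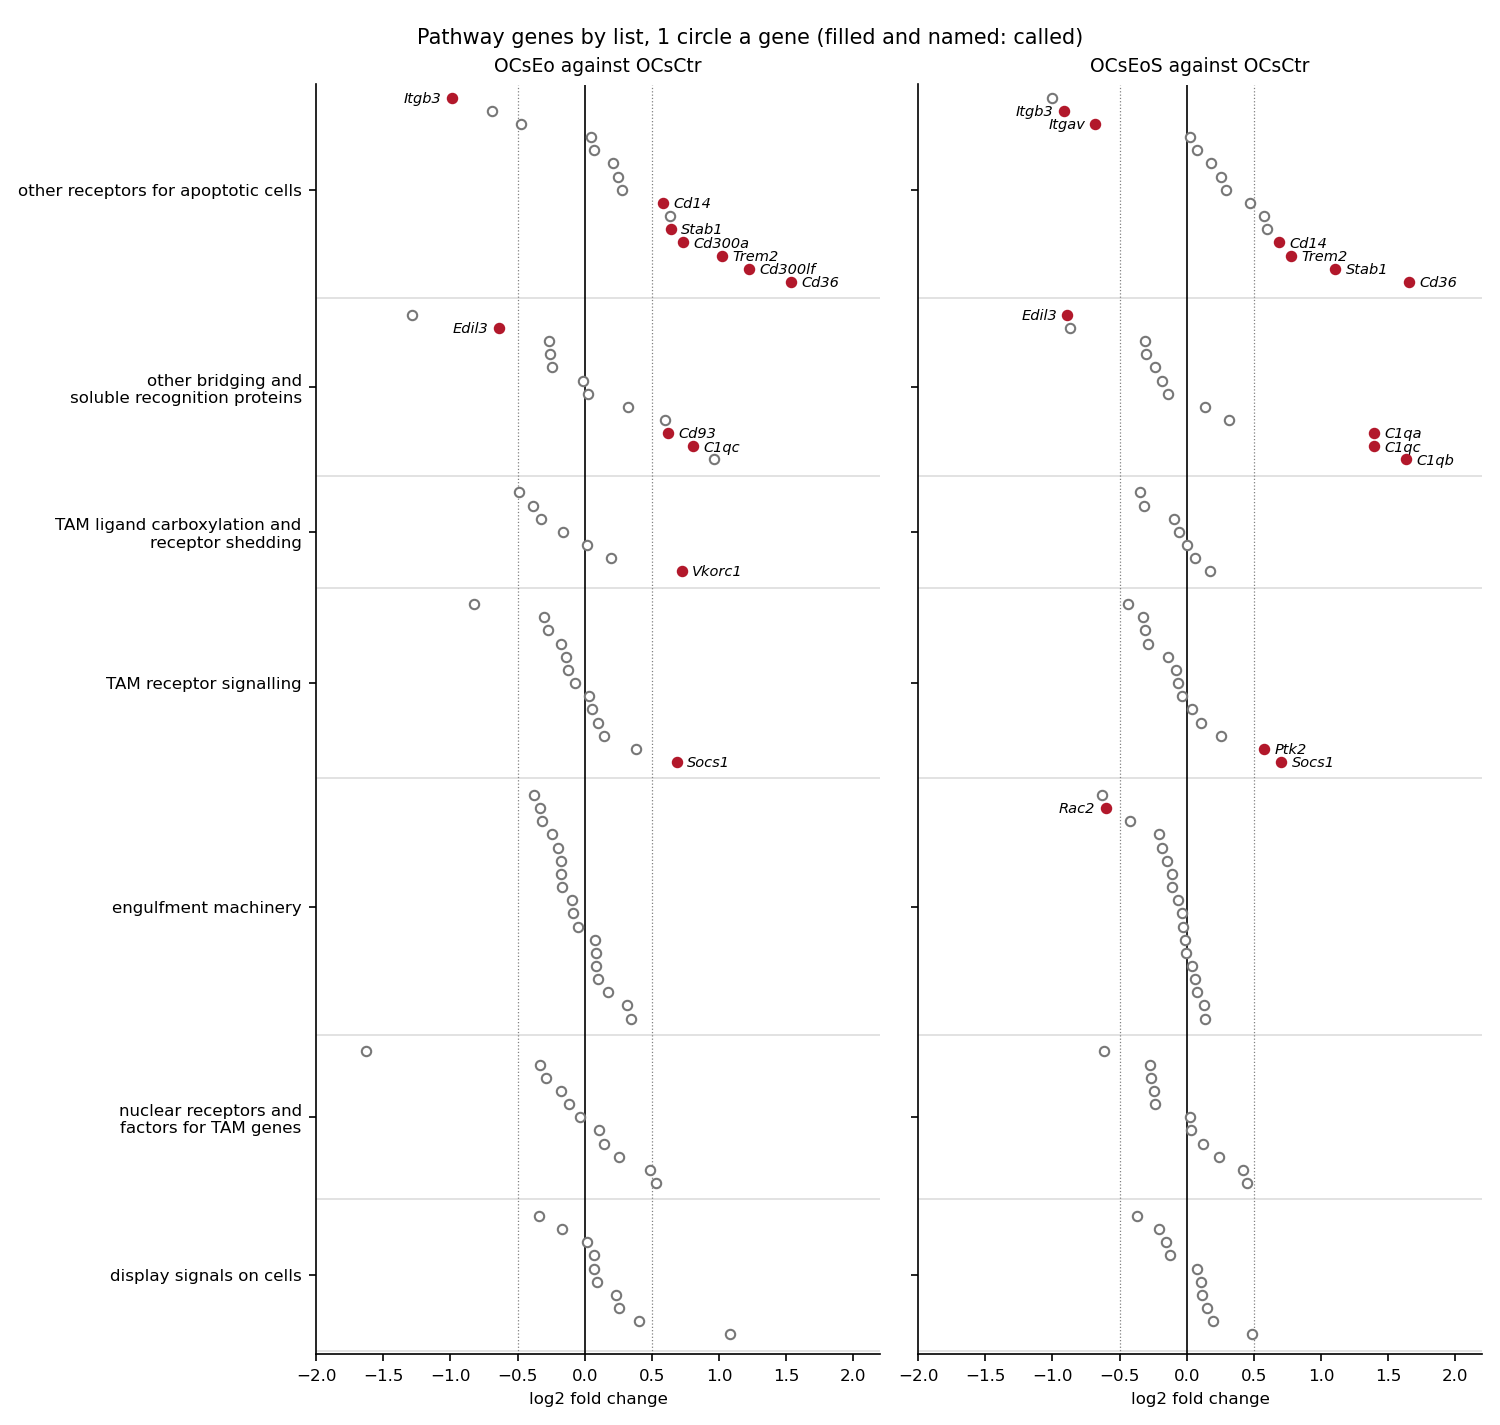
log2 fold change of the 86 tested partner genes in OCsEo (left) and OCsEoS (right) against OCsCtr, 1 circle a gene, sorted within each of the 7 lists, with dotted lines at the cutoff of 0.5 on either side. Filled and named circles are called genes, most of them in the 2 upper lists.

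The list of other receptors for apoptotic cells held 7 of the 12 calls in OCsEo and 6 of the 13 in OCsEoS. Of the 15 tested members of this list, 6 were called higher and 1 lower in OCsEo, and 4 higher and 2 lower in OCsEoS, with medians of 0.28 and 0.30. Over all tested genes, 3.27% were called higher and 2.61% lower in OCsEo, and 3.63% higher and 4.11% lower in OCsEoS. The scavenger receptor Cd36 rose from 59.5 ± 0.54 CPM in OCsCtr to 173 ± 11.8 CPM in OCsEo and 187 ± 19.4 CPM in OCsEoS (SD, n = 4), log2 fold changes of 1.54 and 1.66. Trem2, a lipid-sensing receptor of the myeloid lineage, rose by 1.02 and 0.78 on the log2 scale. Stab1, a scavenger receptor that binds phosphatidylserine, rose by 0.64 ± 0.16 (SE, edgeR adjusted p = 0.00824) in OCsEo and by 1.11 ± 0.16 (SE, edgeR adjusted p = 6.66e-05) in OCsEoS. It shares 112 of its 10288 exon bases with Nt5dc2 on the opposite strand. Cd300lf, a phosphatidylserine-binding receptor, rose by 1.22 ± 0.34 (SE, edgeR adjusted p = 0.0168) in OCsEo, from a level of only 1.06 CPM in OCsCtr, and was not called in OCsEoS at 0.60 (edgeR adjusted p = 0.237). The call of Cd300lf was lost without replicate 1 or 2 of OCsCtr or replicate 1 of OCsEo, at 1.11, 1.13 and 1.14.

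Of the integrin chains through which Mfge8 acts, Itgb3 and Itgav stood out in the same list and were singled out after their values were seen. Itgb3, the beta 3 chain, fell by 0.99 on the log2 scale in OCsEo and by 0.91 in OCsEoS, and is also 1 of the 10 osteoclast markers. The study itself reported Itgb3 as lower on these samples, so its calls are not independent evidence of a direction. Itgav, the alpha v chain, had a log2 fold change of -0.48 in OCsEo (edgeR adjusted p = 0.00727), just under the cutoff, and was called lower in OCsEoS at -0.68 (edgeR adjusted p = 0.000325). Itgav had 730.1 ± 50.5 CPM in OCsCtr, 524 ± 42.7 CPM in OCsEo and 456 ± 113 CPM in OCsEoS (SD, n = 4), and the OCsCtr libraries lay above all others. Itgb5, the beta 5 chain, was at 0.07 in both comparisons and was not called. In OCsEoS Mfge8 and both chains of the alpha v beta 3 integrin were called lower, and in OCsEo the beta 3 chain was, but Itgav did not differ by the test between the stimulated groups (edgeR adjusted p = 0.548).

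Of the 12 tested bridging and soluble recognition proteins, 2 were called higher and 1 lower in OCsEo, and 3 higher and 1 lower in OCsEoS. The shares over all tested genes were 3.27% higher and 2.61% lower in OCsEo, and 3.63% higher and 4.11% lower in OCsEoS. Edil3, a relative of Mfge8 that likewise joins phosphatidylserine to integrins, stood at 73.4 ± 6.9 CPM in OCsCtr, 47.1 ± 5.2 CPM in OCsEo and 39.6 ± 8.1 CPM in OCsEoS (SD, n = 4). It was called lower in both, at -0.64 (edgeR adjusted p = 0.000759) and -0.89 (edgeR adjusted p = 2.86e-05). The chains of complement C1q, an opsonin for dying cells made by macrophages, rose in OCsEoS. There the log2 fold changes were 1.39 for C1qa, 1.63 for C1qb and 1.40 for C1qc, all called. In OCsEo C1qc was called at 0.81 (edgeR adjusted p = 0.0171), whereas C1qa at 0.60 (edgeR adjusted p = 0.135) and C1qb at 0.97 (edgeR adjusted p = 0.0912) were not. In OCsEo the call of C1qc depended on single libraries. Whether C1qa and C1qb were called there depended on the fit or the count filter and, for C1qb, also on single libraries. C1qc lost its call without replicate 2 or 3 of OCsCtr (0.64 and 0.74) or replicate 4 of OCsEo (0.63). C1qb gained one without replicate 4 of OCsCtr (1.31), replicate 2 of OCsEo (1.17) or replicate 4 of OCsEoS (0.97). With the replicate number as a block, edgeR called C1qa at 0.63 (adjusted p = 0.00929) and C1qb at 0.94 (adjusted p = 0.0372). Both were also called without a count filter, at 0.59 and 0.96, and C1qb by DESeq2 on the 2 groups (adjusted p = 0.0168). C1qa is also 1 of the 8 macrophage markers, of which 4 were called higher and 1 lower in OCsEoS. The median of the whole list was 0.01 in OCsEo and -0.16 in OCsEoS.

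Activation of both TAM ligands depends on vitamin K. Among the 7 genes for carboxylation of the ligands and shedding of the receptors, 1 was called higher in OCsEo and 0 in OCsEoS, where edgeR gave 2 with an unadjusted p under 0.05. The called gene was Vkorc1, the vitamin K epoxide reductase, at 3.12 ± 0.64 CPM in OCsCtr, 5.17 ± 0.31 CPM in OCsEo and 3.27 ± 0.48 CPM in OCsEoS (SD, n = 4). It was called at 0.72 (edgeR adjusted p = 0.0208) in OCsEo, but 401 of its 840 exon bases are shared with Gm21974 on the same strand, so its counts are uncertain. Its call was lost without replicate 1 or 4 of OCsCtr, at 0.67 and 0.62. The difference of Vkorc1 between the stimulated groups was -0.66 and was not called (edgeR adjusted p = 0.204). The carboxylase Ggcx was at -0.49 in OCsEo (edgeR adjusted p = 0.0532) and -0.05 in OCsEoS. The sheddases Adam10 and Adam17, which cut Axl and Mertk from the surface, were at 0.02 and 0.20 in OCsEo and were not called.

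Of the 13 genes of TAM receptor signalling, 1 was called higher in OCsEo and 2 in OCsEoS, beside 3.27% and 3.63% of all tested genes. Socs1, a brake on cytokine signalling that TAM receptors induce in dendritic cells, rose by 0.69 ± 0.23 (SE, edgeR adjusted p = 0.0429) and 0.71 ± 0.23 (SE, edgeR adjusted p = 0.0305), at levels of 2.53 to 6.36 CPM. Both calls of Socs1 were near the threshold. In OCsEo it was lost without replicate 1, 2 or 3 of OCsCtr or any 1 library of OCsEo (0.64 to 0.72), and in OCsEoS without replicate 1, 2 or 3 of OCsCtr or replicate 4 of OCsEoS (0.52 to 0.70). Its companion Socs3 was at -0.27 in OCsEo and 0.25 in OCsEoS and was not called. Ptk2, the focal adhesion kinase, was called higher in OCsEoS at 0.57 (edgeR adjusted p = 0.0257), with 0.38 (edgeR adjusted p = 0.163) in OCsEo. That call was lost without replicate 2 or 3 of OCsCtr or replicate 3 of OCsEoS, at 0.47, 0.52 and 0.53. For Ptk2 and Cd300lf the difference between the stimulated groups did not pass the test (edgeR adjusted p = 0.736 and 0.511).

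Engulfment machinery, the proteins that move actin and process the cargo, showed 0 calls in OCsEo over 18 tested genes, with 7 at an unadjusted p under 0.05 by edgeR. In OCsEoS only Rac2, a GTPase of blood cells that drives actin, was called, falling by 0.60 ± 0.07 on the log2 scale (SE, edgeR adjusted p = 6.11e-06) from 917 ± 46.4 CPM to 604 ± 54.8 CPM. Of all tested genes, 4.11% were called lower in OCsEoS. In OCsEo Rac2 was at -0.33 (edgeR adjusted p = 0.00153), under the cutoff of fold change. The median of the list was -0.09 in OCsEo and -0.05 in OCsEoS.

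Of the 11 tested nuclear receptors and other factors for the TAM genes, 0 were called in either comparison. By edgeR adjusted p under 0.05 alone, 1 was higher and 2 lower in OCsEo, and 1 higher and 3 lower in OCsEoS. Over all tested genes, 17.4% and 23.0% passed this p in either direction. The higher 1 was Pparg, a lipid-sensing receptor, at 0.49 (edgeR adjusted p = 0.0231) and 0.45 (edgeR adjusted p = 0.0277), under the cutoff. Its partner Rxra came to 0.11 and 0.12. The related Rxrb was more abundant and lower, at 105 ± 5.8 CPM in OCsCtr, 83.7 ± 5.0 CPM in OCsEo and 87.3 ± 4.0 CPM in OCsEoS (SD, n = 4). The liver X receptors Nr1h3 and Nr1h2 were not called in either group. The stimulated libraries of Rxrb, Nr1h2 and Nr3c1 all lay below those of OCsCtr. In the list 2 genes lay above OCsCtr in OCsEo and 1 in OCsEoS. Over all tested genes, 21.5% and 25.7% did not overlap in either direction. Of the 10 genes for display signals on the dying or living cell, 0 were called in OCsEo and 0 in OCsEoS, with 2 at an unadjusted p under 0.05 by edgeR in each, and Cd47, the signal that spares living cells, was at 0.07 and 0.11.

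Across all 86 partner genes, 0 were called between OCsEoS and OCsEo by edgeR, while 22 had an unadjusted p under 0.05, beside 1524 of all 13681 genes, and DESeq2 called 0 as well. Without a count filter C1qa and C1qc were called, at 0.80 and 0.59, and with the replicate block C1qa was, at 0.79.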

How the data were processed

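RNA of 12 osteoclast cultures in 3 groups was sequenced as paired-end libraries made with the NEBNext Ultra kit. The authors trimmed reads with fastp, aligned them to mm10 with HISAT2 2.0.5 and assigned them to genes with featureCounts. The counts were deposited raw, without normalization. The strand setting and annotation release are not given in the sources used here. All 12 columns were used, with 0 columns left unmapped.

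Genes were filtered with filterByExpr in edgeR 4.0.16 (minimum count 10), which kept 13681 of 47643 and 6 of the 7 genes described. TMM-scaled libraries were fitted together with 3 groups under R 4.3.3. Levels per kilobase used the gene lengths in the table. Timd4 was compared by an exact permutation test. Intervals have a confidence level of 95% and cover the spread between libraries. Pathway and marker lists were written by hand, and these lists and the 7 genes were chosen with earlier results of these data known. From each pathway list at most 4 called genes were named, by size of change, with the 3 nearest genes to each called member. Some genes of the lists and among the nearest genes are not reported here, and the counts leave out those of the lists. Other scalings and filters, DESeq2 1.42.0, fits of 2 groups, a replicate block, the removal of mitochondrial genes, a length trend and each library left out served as alternatives. The fit was tested on simulated data. Counts of replicates differed by more than sampling noise in all 18 pairs (chi-square per degree of freedom 10.2 to 36.5).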

Additional observations from a re-analysis of the deposited data

Results flagged for a closer look

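Within groups of 4 libraries, the highest or lowest library was compared with the rest by Dixon's ratio for the 7 genes and the named partner genes. Of 57 groups tested, 3 passed the critical value at the 95% level, where chance alone passes about 1 in 20. For Timd4, replicate 4 of OCsEo stood apart at 0.346 CPM with 10 counts, since the other 3 libraries had 0 counts. Timd4 also stood apart in replicate 2 of OCsEoS, at 0.897 CPM with 31 counts. For Ptk2, replicate 1 of OCsEo stood apart at 9.56 CPM. The cause was not tested for any of them.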

How the results depend on the processing

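Pros1 and Mfge8 in OCsEoS kept their calls in every alternative. The count of called genes among the 6 tested in OCsEo was 1 and ranged from 0 to 1 with single libraries left out. Without a fold cutoff, 23 partner genes passed in OCsEo (12 with it), 29 in OCsEoS (13 with it) and 2 between the stimulated groups (0 with it). The last count was 2 without a count filter, C1qa and C1qc, and 1 with the replicate block. Evidence that the replicate numbers pair the libraries was mixed. Of 12 same-numbered pairs 6 correlated over 0.1, and 9 of 12 libraries correlated best with their own number. Correlations ran from -0.14 to 0.26 for equal numbers and from -0.19 to 0.15 for other numbers. The labels name no shared source, so the numbers were not taken as pairs. With the replicate block Pros1 was at 0.51 in OCsEo and 0.62 in OCsEoS, and Mfge8 at -0.68 in OCsEoS. Socs1 turned between the stimulated groups with the replicate block (-0.023) and with a length trend taken out (-0.010), which also turned Vkorc1 in OCsEoS (-0.042). None of these was a call. With single libraries left out, uncalled log2 fold changes crossed 0 for Gas6 in OCsEo (-0.21 to 0.013), and in OCsEoS for Mertk (-0.18 to 0.94), Axl (-0.047 to 0.078), Tyro3 (-0.10 to 0.54) and Vkorc1 (-0.037 to 0.18). Between the stimulated groups this held for Tyro3 (-0.55 to 0.092) and Socs1 (-0.18 to 0.19). Of 1180 recomputed fold changes, 1119 kept direction and call, 31 lost a call, 11 gained one and 19 turned. The calls lost were those of Pros1 in OCsEo, Cd300lf, Stab1, C1qc, Edil3, Vkorc1, Socs1 and Ptk2, Socs1 in OCsEo in 9 of 22 alternatives. Stab1 in OCsEo was lost with DESeq2 on 2 groups (0.64) and Edil3 in OCsEo with the length trend (-0.48). Tyro3 had 2 to 21 counts a library, Timd4 0 to 31 and Mertk 19 to 122, with a wide spread of Mertk within groups. The parts of depth and spread in the results for these genes were not tested.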

Other observations

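Mertk varied more between libraries of a group than between groups, and the libraries in which it was highest were looked at after its values were seen. These were replicate 4 of OCsCtr, replicate 4 of OCsEo and replicate 1 of OCsEoS. Of the 8 macrophage markers, 5 had their highest level of each group in the same 3 libraries, namely Adgre1, Fcgr1, Mrc1, Cd14 and Lyz2, beside 2.49% of all 13680 other tested genes. Csf1r, Cd68 and C1qa did not. Mrc1, the mannose receptor, stood at 17.6 CPM in that OCsCtr library against 7.15 to 11.02 CPM in the rest of its group, and at 29.0 CPM in that OCsEoS library against 14.5 to 20.4 CPM in its group.

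Among the 86 tested partner genes the same libraries were highest for Stab1, Cd14, C1qc, Adam10, Adam17 and Maf, of which Cd14 is also a macrophage marker counted above. The share over all other tested genes was 2.49%. C1qc stood at 18.2 CPM in replicate 4 of OCsCtr against 8.13 to 14.4 CPM in the others, at 30.8 CPM in replicate 4 of OCsEo and at 49.4 CPM in replicate 1 of OCsEoS. Pros1, whose group means differ, was highest in the same OCsEo and OCsEoS libraries, but in OCsCtr its highest library was replicate 1. These are single libraries, and no test was made of the relation.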
